A study of Mus musculus with 39 samples.

Results

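The suppressors of cytokine signalling (SOCS) family has 8 genes in the mouse, Cish and Socs1 to Socs7, and their RNA was followed in pancreatic islets across 10 groups of mice. Members were found as probe sets annotated with exactly 1 gene symbol, that symbol being a family name. This gave 12 of the 35556 probe sets on the array. Where a symbol had several probe sets, the probe set of highest mean signal stood for it, which left 8 of 19938 genes. No filter on low values was applied, so all 8 members entered every test.

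The data are 39 arrays of the Affymetrix Mouse Gene 1.0 ST type, whose values are deposited on a log2 scale with 1 decimal. Pdx1-creLate mice (4 arrays) carry a Cre transgene driven by a Pdx1 promoter fragment, which acts in beta cells, and their transgene is known to include a minigene for human growth hormone. Their wild-type littermates (4 arrays) served as controls, and both groups were non-pregnant and of the same backcross generation, N8. The other 8 groups were wild-type C57bl6/J mice: non-pregnant females (4 arrays), pregnancy day 3.5 (3 arrays), days 6.5, 9.5, 12.5, 15.5 and 18.5 (4 arrays each) and 10 days post partum (4 arrays). The labels as used here give no age, no sex for the transgenic mice and their littermates, and no word on pooling of animals. In the transgenic mice and their littermates the sex-linked genes, given below, read as in males. The labels call the replicates biological, and p-values measure the spread between these arrays.

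Prolactin, placental lactogen and growth hormone bind receptors that have no kinase of their own and signal through the attached kinase JAK2, which activates the transcription factor STAT5. The genes that STAT5 switches on include feedback inhibitors of the same receptors, with CIS (the product of Cish) and SOCS2 the best known of them. Every SOCS protein has an SH2 domain, which binds phosphorylated tyrosines, and a SOCS box, which recruits a ubiquitin ligase built on elongin B, elongin C and cullin 5. SOCS1 and SOCS3 also block JAK kinases directly and are known for restraining interferon and interleukin-6 type signals. SOCS4 and SOCS5 have been tied to the EGF receptor, and SOCS6 and SOCS7 to insulin receptor and KIT signalling. In islets, lactogens acting on the prolactin receptor are known to drive the growth of beta cells during pregnancy.

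STAT5 and its relatives bind DNA at TTCNNNGAA, a motif that reads the same on both strands, so the promoter sequences at hand were searched for it. RefSeq windows of the 250 bases before the start (GRCm38.p6) were found for 4 of the 8 members, namely Cish, Socs1, Socs3 and Socs4. The Cish and Socs3 windows are shown because Cish was the member with the widest range of group means and Socs3 the member that passed no test in any comparison. Cish lies on the plus strand (chr9:107296409-107296658) and Socs3 on the minus strand (chr11:117969367-117969616), where the window falls inside the annotated span of the gene. Both read 5′ to 3′ on the gene's strand, and capitals mark the motif.
Cish: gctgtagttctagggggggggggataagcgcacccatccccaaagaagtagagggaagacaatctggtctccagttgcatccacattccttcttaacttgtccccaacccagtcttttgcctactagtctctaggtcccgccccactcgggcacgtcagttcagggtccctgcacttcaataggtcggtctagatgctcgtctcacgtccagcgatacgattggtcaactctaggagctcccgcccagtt
Socs3: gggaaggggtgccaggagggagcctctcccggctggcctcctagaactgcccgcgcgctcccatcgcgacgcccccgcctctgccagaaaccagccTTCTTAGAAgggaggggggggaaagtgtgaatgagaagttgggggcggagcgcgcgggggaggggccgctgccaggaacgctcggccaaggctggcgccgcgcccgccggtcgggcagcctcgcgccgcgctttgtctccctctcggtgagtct
The Socs3 window holds 1 match, TTCTTAGAA, at −154 to −146 from the start. The windows of Cish, Socs1 and Socs4 hold 0 matches. Of 32851 windows of this length in the table, 2306 (7.02%) hold at least 1. The form with 1 more base in its centre was in 0 of the 4 windows and in 5.85% of all windows. A match is only a description of these letters, and sites farther from the start were not searched.

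Levels stood above the array's background. The 1210 probe sets of olfactory and vomeronasal receptor genes, which islets are not known to use, had a median of 3.69 and a 95th percentile of 5.43, and each of the 8 members had a mean above at least 99.5% of them. Of the 4 probe sets not used as the main one, the dimmest Socs6 probe set had a mean of 2.77, above only 6.78% of those receptors, and is not described further. Islet hormone and beta-cell markers had a summed level, given as the mean log2 value of 16 genes, of 11.55 to 11.88 in every group, while 16 immune markers lay between 5.89 and 6.06. The mean of 20 acinar enzymes ranged from 6.96 at day 3.5 to 9.98 at day 6.5. In bulk islets, fewer cells of a type and less RNA per cell cannot be told apart. A gene was called where the adjusted p of limma (moderated test, Benjamini-Hochberg over all 19938 genes) was under 0.05. Differences are given with their standard error (SE) and levels with their standard deviation (SD).

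Setting Pdx1-creLate islets against littermate islets asks what the transgenic line changes outside pregnancy. Of the 8 SOCS genes, 2 were called and both were higher in Pdx1-creLate islets, where 6.59% of all genes were called. They were Cish and Socs2, the members tied to STAT5, and the other 6 had differences between −0.20 and 0.08.

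Cish (probe set 10588577; GRCm38 chromosome 9, 107296659 to 107302784) read 9.7, 9.9, 10.0 and 10.3 on the Pdx1-creLate arrays and 6.5, 6.8, 8.2 and 9.0 on the control arrays. The groups did not overlap, and the controls were spread from 6.5 to 9.0. Cish rose by 2.35 ± 0.40, which is 5.1-fold, from 7.63 ± 1.18 (SD, n = 4) to 9.98 ± 0.25 (limma adjusted p = 0.00177). The difference lay between 1.98 and 2.81 over 20 alternative settings and was called in 19 of them, with an adjusted p = 0.0723 under eBayes with trend and robust. The control arrays also differed in other lactogen-responsive genes: Tph1, which makes the serotonin precursor, read 4.5 to 4.6 on replicates 1 to 3 and 7.3 on replicate 4, whose Cish value was 8.2. Replicate 4 was also the highest control in Cldn8, a claudin (7.9 against 5.1 to 5.3), and in Tnfrsf11b, osteoprotegerin (7.4 against 6.6 to 7.1). Control replicate 3, with Cish at 9.0, read 4.5 for Tph1, 5.3 for Cldn8 and 6.7 for Tnfrsf11b. Its Myc of 7.4 was the highest of the controls and lay within the non-pregnant range of 6.3 to 7.4.

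Socs2 (probe set 10394674; chromosome 10, 95383903 to 95417321), an inhibitor of growth hormone receptor signalling, read 10.0, 10.3, 10.3 and 10.6 with the transgene and 7.5, 7.9, 8.3 and 8.5 in the controls. Its groups did not overlap either, and the controls were less spread than for Cish. It rose by 2.25 ± 0.18, which is 4.76-fold (adjusted p = 1.67e-06), and was called in 20 of 20 alternatives. A second Socs2 probe set (10372069), with lower values throughout, read 7.5 to 7.9 against 6.3 to 6.9 and gave 1.18 ± 0.13 (adjusted p = 6.64e-05 when each probe set was tested separately). The direction was shared by both probe sets, and the size on the log2 scale was not. Where in the gene each probe set lies is not given in the sources used here. Acinar enzymes averaged 9.71 on the Pdx1-creLate arrays and 8.99 on the control arrays, with 0 of 20 called by limma (3 with an unadjusted p under 0.05); with this mean as a covariate Cish had 2.45 (adjusted p = 0.00352) and Socs2 2.26 (adjusted p = 7.63e-06).

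Other cell-type markers differed between these groups together with Cish and Socs2. The mean of 8 duct markers was 7.56 to 7.81 on the Pdx1-creLate arrays and 7.16 to 7.26 on the control arrays, without overlap, and 3 of the 8 rose: Cftr, a chloride channel, by 3.53, Krt18, a keratin, by 0.48 and Epcam, an epithelial adhesion protein, by 0.43. Of the remaining duct markers, Krt8 had a higher mean in Pdx1-creLate islets (9.45 against 9.25). Krt7 (9.25 against 9.48), Krt19 (5.30 against 5.45), Sox9 (5.70 against 5.85) and Muc1 (5.33 against 5.35) had lower means. Without Cftr, left out after its values were seen, the duct mean was 7.64 to 7.83 against 7.64 to 7.74, which overlapped. The mean of 11 stellate-cell markers was 6.59 to 6.85 against 6.90 to 7.17, again without overlap, and 2 of the 11 fell, Acta2 (smooth muscle actin) by 0.75 and Col1a2 (a collagen chain) by 0.35. Of the 16 islet markers 2 rose and 6 fell, with array means of 11.51 to 11.59 against 11.70 to 11.77. Of 11 endothelial markers 0 were called by limma (3 with an unadjusted p under 0.05), and 1 of 16 immune markers rose. Over all genes 6.59% were called in this comparison and 18.8% had an unadjusted p under 0.05. The part of the duct, stellate, islet, endothelial and immune markers in the Cish and Socs2 values was not tested.

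**Figure D1:**
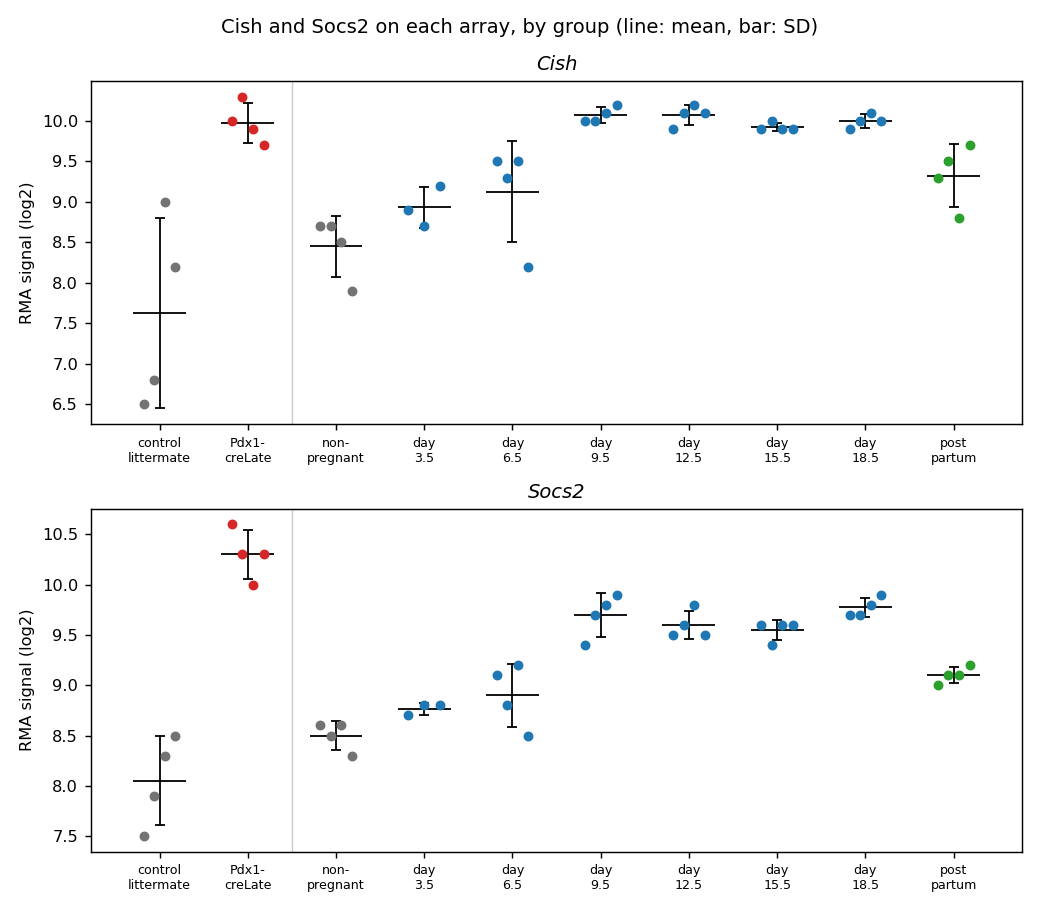
Deposited log2 signal (vertical axis) of Cish and Socs2 on every array of the 10 groups (horizontal axis), with points for arrays, a line for the group mean and a bar for the SD; the grey line parts the backcross mice from C57bl6/J mice. Cish on the 16 arrays of days 9.5 to 18.5 lies between 9.9 and 10.2 and overlaps the Pdx1-creLate arrays (9.7 to 10.3), while the Pdx1-creLate arrays of Socs2 (10.0 to 10.6) stand above every pregnant array.

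The comparisons of single pregnancy days with non-pregnant islets share the same 4 non-pregnant arrays, so they are given side by side. In these Cish and Socs2 were called at days 9.5, 12.5, 15.5 and 18.5, and neither was called at days 3.5 and 6.5. Of the 8 members, 0 were called at day 3.5, where 0.0451% of all genes were, and 0 at day 6.5, where 0.622% were. At each of these days 3 members had an unadjusted p under 0.05. So did 20.3% of all genes at day 3.5 and 11.3% at day 6.5. At day 9.5, 3 members were called against 19.4% of all genes, at day 12.5, 2 against 5.27%, at day 15.5, 3 against 8.23%, and at day 18.5, 2 against 11.1%. The called members beside Cish and Socs2 were Socs1 at day 9.5 and Socs4 at day 15.5, both lower.

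Cish read 7.9, 8.5, 8.7 and 8.7 in non-pregnant islets, 8.7, 8.9 and 9.2 at day 3.5, and 8.2, 9.3, 9.5 and 9.5 at day 6.5. From day 9.5 on the arrays lay within a narrow band: 10.0 to 10.2 at day 9.5, 9.9 to 10.2 at day 12.5, 9.9 to 10.0 at day 15.5 and 9.9 to 10.1 at day 18.5. All 16 of these arrays were above all 11 earlier ones. The difference from non-pregnant islets was 0.48 ± 0.21 (adjusted p = 0.204) at day 3.5 and 0.68 ± 0.20 (adjusted p = 0.117) at day 6.5. Replicate 4 was the lowest day 6.5 array, at 8.2, and without it the difference was 0.98 (adjusted p = 0.00141). At day 9.5 Cish was up by 1.63 ± 0.20, which is 3.08-fold (adjusted p = 3.76e-07), and by 1.63, 1.48 and 1.55 at days 12.5, 15.5 and 18.5 (adjusted p = 5.47e-07, 2.95e-06 and 8.24e-07).

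Socs2 read 8.3, 8.5, 8.6 and 8.6 in non-pregnant islets, 8.7, 8.8 and 8.8 at day 3.5, and 8.5, 8.8, 9.1 and 9.2 at day 6.5. It then read 9.4 to 9.9 at day 9.5, 9.5 to 9.8 at day 12.5, 9.4 to 9.6 at day 15.5 and 9.7 to 9.9 at day 18.5. Its day 3.5 arrays were all above the non-pregnant ones, yet the difference of 0.27 ± 0.12 did not pass the test (adjusted p = 0.216). At day 6.5 it was 0.40 ± 0.11 (adjusted p = 0.104), and 0.53 (adjusted p = 0.00945) without replicate 4, which was low for both Cish and Socs2. Averaging its probe sets also brought the day 6.5 difference past the threshold (0.40, adjusted p = 0.049). Socs2 rose by 1.20 ± 0.11 at day 9.5, which is 2.3-fold (adjusted p = 2.13e-09), and by 1.28 ± 0.11 at day 18.5, which is 2.42-fold (adjusted p = 3.84e-10). The second probe set rose by 0.88, 0.93, 0.80 and 0.90 at days 9.5, 12.5, 15.5 and 18.5.

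Over mid-pregnancy, taken as the mean of days 9.5, 12.5 and 15.5, 2 members were called against 9.24% of all genes: Cish at 1.58 ± 0.16 (adjusted p = 9.3e-09) and Socs2 at 1.12 ± 0.09 (adjusted p = 7.68e-11). Both were called in 28 of 28 alternatives. The other 6 members had differences between −0.16 and 0.11. Of the 8 duct markers Krt18 and Epcam rose here too, by 0.58 and 0.35. For stellate markers 0 of 11 were called by limma (2 with an unadjusted p under 0.05, beside 20.1% of all genes). The part of the duct and stellate markers in the SOCS values was not tested.

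Among the steps between neighbouring days, Cish and Socs2 were called from day 6.5 to 9.5 and in no other. In that step 4 members were called, 2 higher and 2 lower, against 17.4% of all genes. Cish was up by 0.95 ± 0.20 (adjusted p = 0.00123), Socs2 was up by 0.80 ± 0.11 (adjusted p = 1.26e-05), and Socs1 and Socs5 each fell by 0.28 (adjusted p = 0.019 and 0.0111). With arrays centred on their medians only the 2 rises were called. Acinar enzymes moved in the same step, with 17 of 20 lower, a median of −1.90 and array means of 9.85 to 10.22 at day 6.5 against 6.32 to 9.72 at day 9.5. With each array's acinar mean as a covariate Cish had 0.96 (adjusted p = 0.006) and Socs2 0.85 (adjusted p = 8.75e-05). The 2 days did not overlap in this mean, so the covariate cannot fully part acinar RNA from the step. Between days 3.5 and 6.5, 0 members were called (1.25% of all genes), and 3 had an unadjusted p under 0.05 (17.8% of all genes). Between days 9.5 and 12.5, 0 members were called (3.22% of all genes), and 2 had an unadjusted p under 0.05 (23.2% of all genes). Between days 12.5 and 15.5 again 0 were called (0% of all genes). In that step 1 member, Socs4, had an unadjusted p under 0.05 (11.8% of all genes). From day 15.5 to 18.5, 2 were called against 10.3% of all genes, Socs4 and Socs6, with Cish at 0.08 (adjusted p = 0.803) and Socs2 at 0.23 (adjusted p = 0.156). A moderated F-test of any difference among the 6 pregnancy days called 6 members, all but Socs3 and Socs6, against 38.6% of all genes. The call of Socs1 (adjusted p = 0.0499) was kept in 7 of 35 alternatives. The ranges of day means were 1.14 for Cish, 1.01 for Socs2 and 0.23 to 0.55 for the other 6, beside a median of 0.30 over all genes.

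At 10 days post partum Cish and Socs2 lay between their non-pregnant and their late-pregnancy levels. Cish read 8.8, 9.3, 9.5 and 9.7, all above the non-pregnant arrays and all below the day 18.5 arrays, and Socs2 read 9.0, 9.1, 9.1 and 9.2, again overlapping neither. Against non-pregnant islets, 2 members were called and 12.2% of all genes. Cish was higher by 0.88 ± 0.20 (adjusted p = 0.00296, and 0.052 with all 39 arrays in 1 model), and Socs2 by 0.60 ± 0.11 (adjusted p = 0.000464). Against day 18.5, 5 members were called, 1 higher and 4 lower, and 30.2% of all genes. Cish and Socs2 each fell by 0.68 (adjusted p = 0.0123 and 0.000281), Socs6 by 0.33 and Socs4 by 0.28, and Socs1 rose by 0.28.

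The arrays on either side of birth also differed as a whole. The SD of all values on an array, a measure of how far the array's values spread, was 2.001 to 2.042 post partum and 2.053 to 2.101 at day 18.5. With this SD as a covariate none of the 8 members was called: Cish had −0.66 (adjusted p = 0.329), Socs2 −0.34 (adjusted p = 0.292), Socs1 0.19 (adjusted p = 0.494), Socs6 −0.24 (adjusted p = 0.312) and Socs4 0.09 (adjusted p = 0.803). The 2 groups did not overlap in this SD, so this fit cannot part array spread from the step across birth. Cish was also not called after quantile normalization (adjusted p = 0.077) or with all 39 arrays in 1 model (adjusted p = 0.0825). Markers of other cell types fell in the same step, where 30.2% of all genes were called. Lower were 11 of 11 endothelial markers (median −0.40) and 7 of 11 stellate markers (median −0.50). Their part in the SOCS values was not tested.

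**Figure D2:**
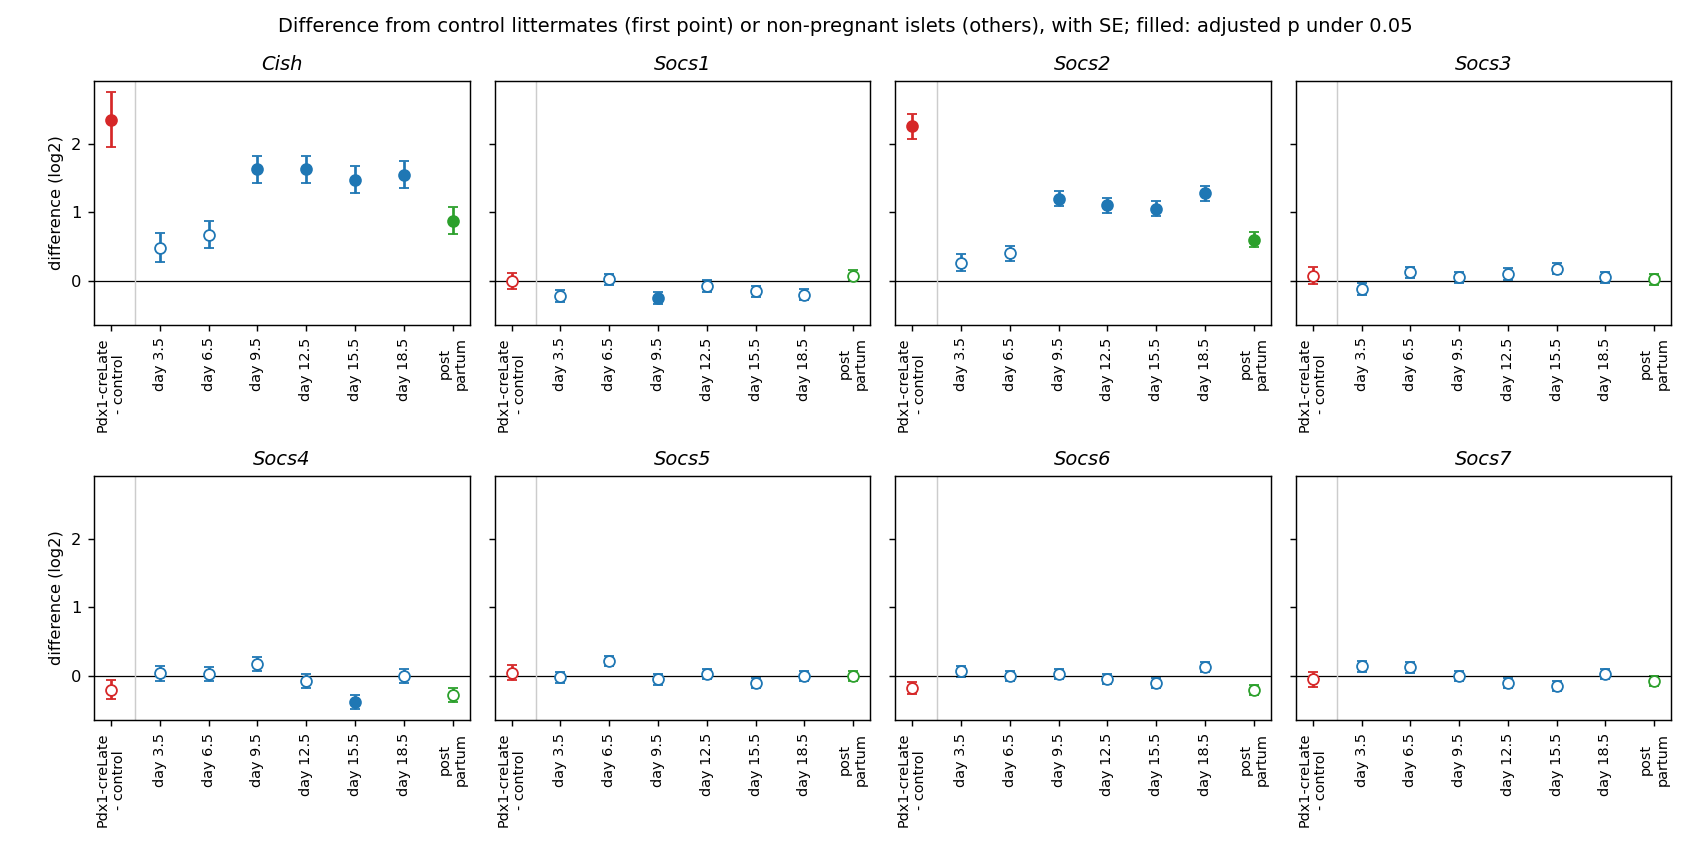
Log2 difference (vertical axis) with its SE for each of the 8 genes: Pdx1-creLate minus control littermates as the first point, then each pregnancy day and 10 days post partum minus non-pregnant islets; filled points had an adjusted p under 0.05. Cish and Socs2 are filled for the transgene, at days 9.5 to 18.5 and post partum, while among the others only Socs1 at day 9.5 (−0.25) and Socs4 at day 15.5 (−0.38) are.

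Ordered by group mean, Cish ran from day 9.5 and day 12.5 (10.08 each) through day 18.5 (10.00), Pdx1-creLate (9.98) and day 15.5 (9.93), whose arrays overlapped. A gap of 0.60 with no overlap followed, and then came post partum (9.33), day 6.5 (9.13), day 3.5 (8.93), non-pregnant (8.45) and control littermates (7.63), each overlapping the next. Socs2 had another order at the top: Pdx1-creLate (10.30) did not overlap day 18.5 (9.78), which came next. Days 9.5, 12.5 and 15.5 (9.70, 9.60 and 9.55) overlapped, were parted from post partum (9.10), and day 6.5 (8.90) and day 3.5 (8.77) followed. Non-pregnant islets (8.50) did not overlap day 3.5, and control littermates (8.05) came last. On the second Socs2 probe set, too, the Pdx1-creLate arrays (7.5 to 7.9) lay above every pregnant array (at most 7.3).

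Whether the transgene moved the family by more than pregnancy did was tested as the difference between the 2 effects, in a model of all 39 arrays. The 2 effects were measured in mice that differ in breeding (N8 backcross and C57bl6/J) and, by the sex-linked genes given below, in sex. A difference between the effects cannot be told apart from these. Of the 8 members 1 was called, against 5.48% of all genes. For Socs2 the transgene effect exceeded the mid-pregnancy effect by 1.13 ± 0.19 (adjusted p = 5.74e-05), and this was called in 35 of 35 alternatives. The second Socs2 probe set had 0.31 ± 0.15 (adjusted p = 0.261), so the call rests on the brighter probe set. For Cish the excess was 0.78 ± 0.39 (adjusted p = 0.287), and without control replicate 3, the highest of the controls, it was 1.23 (adjusted p = 0.0178). The other 6 members had values between −0.13 and 0.16.

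The 2 baselines were not alike. Control littermates against non-pregnant C57bl6/J females called 5 members, 2 higher and 3 lower, and 20% of all genes. The littermates and the Pdx1-creLate arrays read 3.8 to 5.0 for Xist, which is expressed from the inactive X chromosome, against 10.2 to 10.5 in the non-pregnant females, and 7.1 to 8.0 against 2.6 to 2.8 for the Y-linked Eif2s3y. Sex and breeding (N8 backcross and C57bl6/J) cannot be told apart in this comparison. Socs7 had the smallest adjusted p, with 6.6, 6.7, 6.7 and 7.0 in littermates and 7.3, 7.3, 7.3 and 7.4 in non-pregnant females, a difference of −0.58 ± 0.08 (adjusted p = 4.96e-06, called in 19 of 19 alternatives). Cish had −0.83 ± 0.30 (adjusted p = 0.0461, called in 10 of 19). Socs2 had −0.45 ± 0.14 (adjusted p = 0.0234, called in 12 of 19), while its second probe set went the other way, at 0.28 (adjusted p = 0.0812), and the mean of both gave −0.09 (adjusted p = 0.664). Socs4 was higher by 0.43 ± 0.12 (adjusted p = 0.00798) and Socs1 by 0.28 ± 0.09 (adjusted p = 0.0316).

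Socs1 and Socs3, the members that inhibit JAK kinases directly, did not follow Cish and Socs2. Socs1 (probe set 10437668; chromosome 16, 10783808 to 10785536) read 6.4, 6.6, 6.8 and 7.0 with the transgene and 6.6, 6.7, 6.7 and 6.8 in littermates, a difference of 0.00 ± 0.12. It read 6.4, 6.4, 6.4 and 6.5 in non-pregnant islets and 6.1, 6.1, 6.2 and 6.3 at day 9.5, so the groups did not overlap and their nearest arrays were 0.1 apart, the step of the deposited values. It fell by 0.25 ± 0.08 (adjusted p = 0.0295), a call kept in 12 of 20 alternatives and lost among others with quantile normalization (−0.20, adjusted p = 0.11) and with arrays centred on their medians (−0.15, adjusted p = 0.227). Post partum arrays (6.4, 6.5, 6.5 and 6.6) were above those of day 18.5 (6.2, 6.2, 6.2 and 6.3), a rise of 0.28 ± 0.08 (adjusted p = 0.0136) that was not called with arrays centred on their medians (0.15, adjusted p = 0.175). Its changes were thus small and, at days 9.5 and across birth, opposite in sign to those of Cish and Socs2. Socs3 (probe set 10393449; chromosome 11, 117966079 to 117970336) lay between 6.5 and 7.1 on all 39 arrays, with group means within 0.30, and was called by limma in none of the 18 comparisons, with an unadjusted p under 0.05 in 3 of them. Its dimmer probe set was called in the step across birth (0.30, adjusted p = 0.0382).

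Of Socs4 and Socs5, tied to the EGF receptor, the first was lowest at day 15.5 and the second highest at day 6.5. Socs4 (probe set 10414350; chromosome 14, 47276920 to 47296102) read 6.6, 6.6, 6.7 and 7.0 in non-pregnant islets, 6.8, 6.9, 6.9 and 7.0 at day 9.5, 6.0, 6.4, 6.4 and 6.6 at day 15.5 and 6.6, 6.7, 6.8 and 6.8 at day 18.5. Day 15.5 was its low point, with arrays that touched the non-pregnant ones at 6.6. It fell by 0.38 ± 0.10 at day 15.5 (adjusted p = 0.0183), and the call was lost without day 15.5 replicate 2, the array at 6.0 (−0.26, adjusted p = 0.121). The return by 0.38 from day 15.5 to 18.5 (adjusted p = 0.0288) held in 13 of 20 alternatives. Post partum Socs4 was low again, at 6.3 to 6.6 with a mean of 6.45, beside 6.35 at day 15.5. It had −0.275 against day 18.5 (limma adjusted p = 0.0423, kept in 11 of 20 alternatives). Against non-pregnant islets the post partum difference was −0.275 (limma adjusted p = 0.0758). Its F-test among pregnancy days (range 0.55, adjusted p = 0.00304) was called in 35 of 35. Socs5 (probe set 10447356; chromosome 17, 87107278 to 87137647) lay between 7.9 and 8.4 on all arrays and was highest at day 6.5, with 8.2, 8.2, 8.3 and 8.4 against 7.9, 8.0, 8.0 and 8.1 at day 9.5. At day 6.5 it was 0.225 above non-pregnant islets, which was not called (limma adjusted p = 0.186). The F-test call of Socs5 (adjusted p = 0.0142) was lost without day 6.5 replicate 4 (adjusted p = 0.0705). Day 6.5 was also the group with the most acinar RNA, and its arrays did not overlap those of day 9.5 in the acinar mean. With that mean as a covariate the Socs5 step to day 9.5 was −0.36 (adjusted p = 0.00556), which cannot fully part acinar RNA from the step.

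Socs6 and Socs7, tied to insulin receptor and KIT signalling, had pregnancy day means within 0.23 (Socs6) and 0.29 (Socs7) of each other. Socs6 (probe set 10566668; chromosome 18, 88865169 to 88894364) read 7.9, 7.9, 7.9 and 8.0 at day 18.5 and 7.5, 7.5, 7.7 and 7.7 post partum, which did not overlap. It fell by 0.33 ± 0.07 (adjusted p = 0.00262), while its second probe set gave −0.18 (adjusted p = 0.274), and quantile normalization gave −0.20 (adjusted p = 0.0631). Socs6 was also up by 0.23 from day 15.5 to 18.5 (adjusted p = 0.0471), a call kept in 8 of 20 alternatives. Socs7 (probe set 10380761; chromosome 11, 97362292 to 97398542) read 6.6, 6.6, 6.7 and 6.9 with the transgene, next to its littermates, and 7.1 to 7.7 on all C57bl6/J arrays. Its 8 backcross arrays thus lay below its 31 C57bl6/J arrays. Its pregnancy days differed by 0.29 at most (F-test, adjusted p = 0.014), a call kept in 35 of 35 alternatives.

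**Figure D3:**
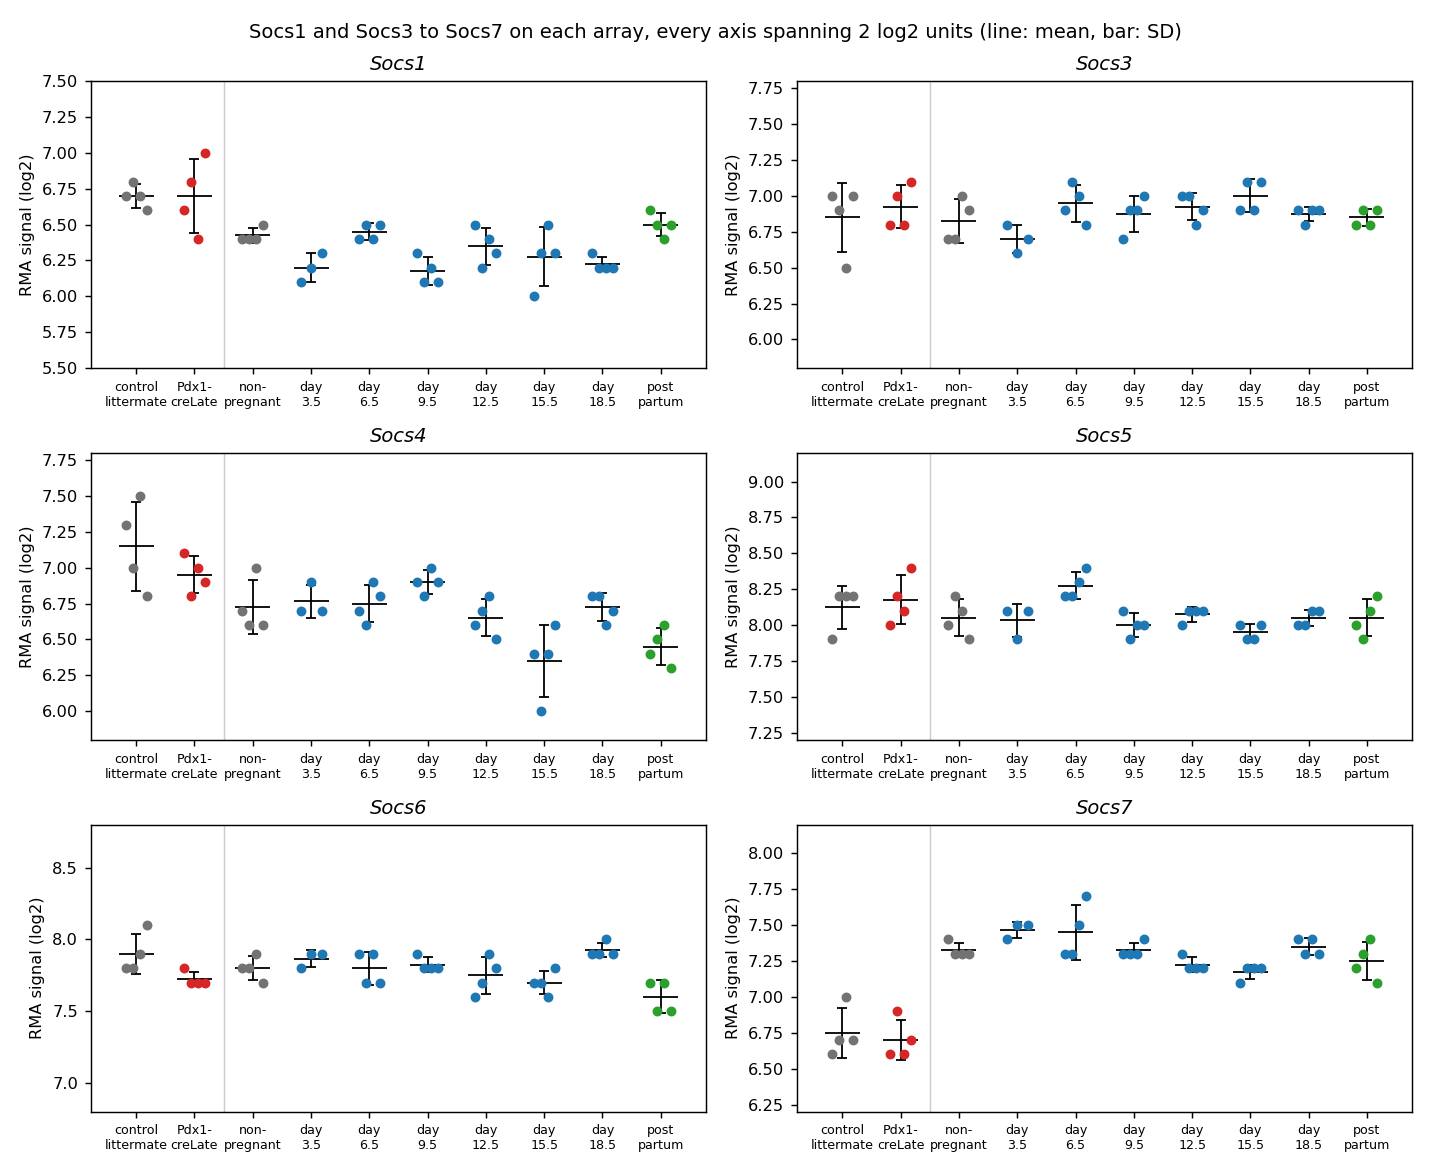
Deposited log2 signal (vertical axis) of Socs1 and Socs3 to Socs7 on every array of the 10 groups, with a line for the mean and a bar for the SD, each axis spanning 2 log2 units. Group means of these 6 genes lie within 0.30 (Socs3) to 0.80 (Socs4) of each other, and Socs7 shows the step between the 8 backcross arrays (6.6 to 7.0) and the C57bl6/J arrays (7.1 to 7.7).

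Other genes of the pathway were counted from lists chosen with earlier results of these data known. Of the receptors and kinases, Ghr, the growth hormone receptor, fell by 0.29 ± 0.07 in mid-pregnancy (adjusted p = 0.00233), and Stat5a and Stat5b fell by 0.23 ± 0.06 (adjusted p = 0.00598) and 0.26 ± 0.05 (adjusted p = 0.00133). Stat3 rose by 0.18 ± 0.06 (adjusted p = 0.0391), Jak2 had −0.11 ± 0.07 (adjusted p = 0.438), and Prlr is not analysed here. Thus 1 of 9 JAK and STAT genes rose and 2 fell in mid-pregnancy, where 9.24% of all genes were called. In Pdx1-creLate islets 1 of the 9 was called, Stat6, which fell (−0.40, adjusted p = 0.0188). Stat5a and Stat5b had differences near those of mid-pregnancy without a call, at −0.25 (adjusted p = 0.288) and −0.275 (adjusted p = 0.115). Ghr had −0.175 (adjusted p = 0.302), Stat3 0.175 (adjusted p = 0.455) and Jak2 0.025 (adjusted p = 0.914). Among 12 other cytokine receptors 3 rose and 1 fell with the transgene, led by Csf2rb, the shared beta chain of the interleukin-3, interleukin-5 and GM-CSF receptors (2.38 ± 0.17), and Il13ra1, a chain of the interleukin-13 receptor (1.25 ± 0.11). In mid-pregnancy again 3 rose and 1 fell, with Il13ra1 at 0.80 and the interleukin-6 receptor Il6ra at −0.42. Over all genes 6.59% were called with the transgene and 9.24% in mid-pregnancy.

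The other inhibitors of the pathway (PIAS proteins, phosphatases, adaptors and CBL ligases) moved little where Cish and Socs2 rose: 1 of 15 was lower with the transgene (Dusp3, −0.35) and 0 of 15 were called by limma in mid-pregnancy (2 with an unadjusted p under 0.05), with medians of −0.05 and −0.03 beside −0.03 and −0.01 over all genes. Across birth 7 of 15 fell, among them Pias1, Pias3 and Pias4, where 30.2% of all genes were called, with a median of −0.20 beside −0.03. Of 9 genes of the ubiquitin ligase machinery that SOCS boxes bind, 0 were called by limma with the transgene (0 with an unadjusted p under 0.05) and 1 in mid-pregnancy, Elob, which encodes elongin B (0.31 ± 0.09, adjusted p = 0.015). From day 6.5 to 9.5, 4 of the 9 rose, Arih2, Rbx1, Rnf7 and Eloc, by 0.28 to 0.50, where 17.4% of all genes were called. Of 33 other genes with a SOCS box, 2 fell with the transgene (Asb11 at −0.75 and Asb5 at −0.40), a share near the 6.59% of all genes called there, and 0 were called by limma in mid-pregnancy (2 with an unadjusted p under 0.05).

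Target genes were listed by the signal they report. Of 20 genes taken as lactogen or STAT5 responsive, a list not independent of these data, 10 rose and 3 fell with the transgene (median 0.70) and 11 rose in mid-pregnancy (median 0.80). Over all genes 6.59% were called with the transgene and 9.24% in mid-pregnancy, with medians of −0.025 and −0.008. Of 24 targets of STAT3 and NF-κB, the signals that induce Socs3 in other settings, 0 were called by limma with the transgene and 0 in mid-pregnancy (medians −0.01 and −0.05), with an unadjusted p under 0.05 in 2 and 5. Over all genes 18.8% and 20.1% had an unadjusted p under 0.05 in these comparisons. Of 20 interferon targets, whose upstream signal induces Socs1, 2 rose and 1 fell with the transgene, with Gbp4 at 1.90 ± 0.16, and 3 rose in mid-pregnancy, with Irf9 at 0.42 ± 0.08. At day 9.5, where Socs1 had its lowest mean, 9 of the 20 interferon targets were higher than in non-pregnant islets, against 19.4% of all genes called (median 0.43 beside −0.03 over all genes). The 4 day 9.5 arrays were not alike, with means of the 20 targets of 7.14, 6.16, 6.63 and 6.28 on replicates 1 to 4 against 6.10 to 6.17 in non-pregnant islets. With single arrays left out, the targets called ranged from 4 to 13. They were 4 without day 9.5 replicate 1 (median 0.23) and 13 without day 9.5 replicate 2 (median 0.53). Without non-pregnant replicate 3 they were 5, with a median of 0.41.

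The genes most like Cish and Socs2 were found by Pearson's r over the 10 group means, among 637 genes whose means ranged over at least 1 log2 unit. For Cish these were Slc6a8, the creatine transporter (r = 0.962), the serotonin-synthesis enzyme Tph2 (0.950), Syce2 (0.948), Psd4 (0.943) and Rbmx2 (0.943). For Socs2 they were Sh3gl2, an endophilin (0.992), Car8 (0.976), Gatm, an enzyme of creatine synthesis (0.976), Cdh7 (0.969) and the iron exporter Slc40a1 (0.967). Over the 39 single arrays the r of these 10 genes was 0.815 to 0.943. The points share the same arrays and normalization, and the values describe likeness of pattern only.

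Cish and Socs2 also varied together within groups. After each array's group mean was taken off, Pearson's r between Cish and Socs2 over the 39 arrays was 0.713 and Spearman's rho 0.657. Without the 2 arrays farthest from their Cish group mean, both control littermates, r was 0.642, and without all control arrays 0.589. With the second Socs2 probe set r was 0.631. For comparison, the 2 probe sets of Socs2 correlated at 0.727 in the same way. Over the other pairs of members r lay between −0.363 (Socs3 and Socs4) and 0.527 (Socs2 and Socs6), with 0.353 for Cish and Socs6. Over group means Socs6 had an r of −0.289 with Socs2 and −0.321 with Cish. All these values are descriptions over arrays that share RNA and normalization.

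**Figure D4:**
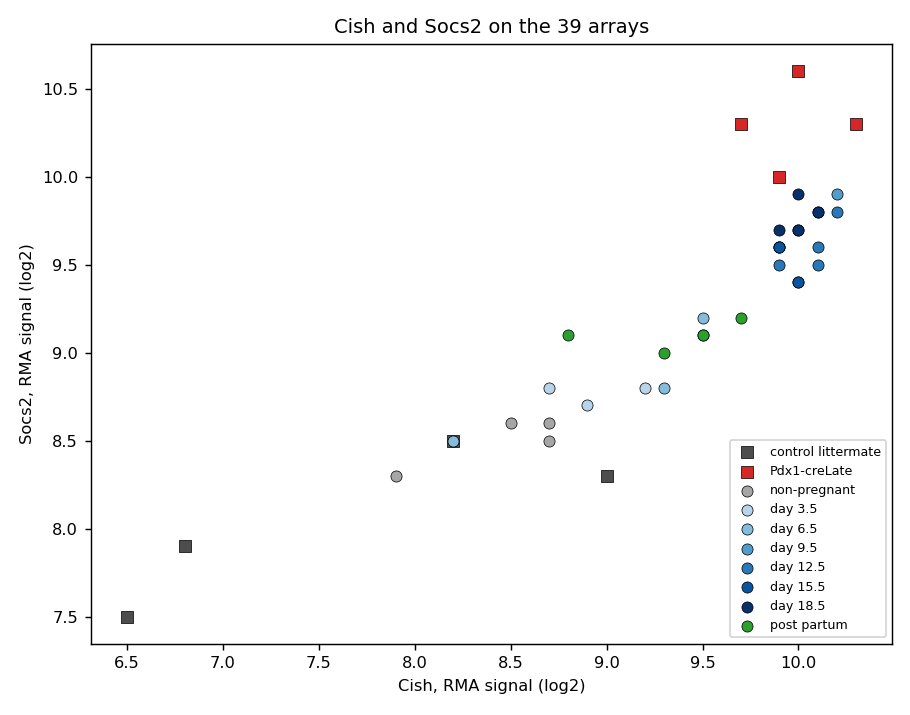
Log2 signal of Cish (horizontal axis) against Socs2 (vertical axis) on the 39 arrays, with squares for backcross mice, circles for C57bl6/J mice and colours for groups. The 16 arrays of days 9.5 to 18.5 sit at Cish values of 9.9 to 10.2, the 4 Pdx1-creLate arrays have similar Cish values (9.7 to 10.3) with higher Socs2 values (10.0 to 10.6), and control littermates spread from 6.5 to 9.0 in Cish.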

How the data were processed

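Total RNA of isolated islets was hybridized to Affymetrix Mouse Gene 1.0 ST arrays. The deposited log2 values were made by the authors with RMA (robust multi-array average: background correction, quantile normalization and summary per probe set) in Affymetrix Expression Console, per the submitters' processing notes. The version of that program and the set of arrays it normalized at once are not given in the sources used here. Genes were named from GEO's platform annotation: 21789 of 35556 probe sets had 1 symbol, 1621 several and 12146 none. No symbol needed updating, and positions are those of RefSeq for GRCm38.

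Tests were two-sided and used lmFit and eBayes of limma 3.58.1, run under R 4.3.3, on group means. The transgene comparison used its 8 arrays, pregnancy and post partum comparisons the 31 C57bl6/J arrays, and the interaction and the comparison of baselines all 39. Summaries used Python 3.11.15 with pandas 2.3.3 and numpy 2.4.6, and plots matplotlib 3.10.9. The procedure was tested on simulated arrays. Precision is limited by how many arrays each group has. The members, gene lists and alternatives were chosen with earlier results of these data known. All 8 members are named whatever their result; of each list up to 4 called genes of largest difference, and the lactogen receptors, Jak2 and STAT genes always. Alternatives were another normalization or centring, a filter on the dimmest 25% of genes, trend and robust eBayes, array weights, other uses of the probe sets, the acinar marker mean or array SD as a covariate, a replicate block, other arrays in the fit, and each array left out in turn.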

Additional observations from a re-analysis of the deposited data

Results flagged for a closer look

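In each group of 4 arrays the highest and the lowest value of every SOCS gene was set against the others by the ratio of its gap to the group's range. Of 72 combinations of gene and group 15 stood out, where chance gives about 1 in 20, and in 12 of the 15 the whole range was 1 rounding step of 0.1, so that a single array differed from 3 equal ones.

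The 3 wider ones were Cish at day 6.5, with its lowest array at 8.2, Socs2 at day 15.5, with its lowest array at 9.4, and Socs5 in control littermates, with its lowest array at 7.9.

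The ones within 1 step were as follows. Cish read 10.0 on 1 array of day 15.5. Socs1 read 6.5 on 1 non-pregnant array and 6.3 on 1 array of day 18.5. Socs3 read 6.8 on 1 array of day 18.5, and Socs5 read 8.0 on 1 array of day 12.5. Socs6 read 7.8 on 1 Pdx1-creLate array, 7.9 on 1 array of day 9.5 and 8.0 on 1 array of day 18.5. Socs7 read 7.4 on 1 non-pregnant array, 7.4 on 1 array of day 9.5, 7.3 on 1 array of day 12.5 and 7.1 on 1 array of day 15.5.

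Socs2 stood out for a difference between effects: the transgene effect exceeded the mid-pregnancy effect by 1.13 on the log2 scale (limma adjusted p = 5.74e-05), with 0.31 on its second probe set. Sex and breeding (N8 backcross and C57bl6/J) cannot be told apart from this difference.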

How the results depend on the processing

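Of 3160 differences of single SOCS genes under an alternative setting, 3034 kept their side of the threshold, 109 lost the call, 16 gained it and 1 reversed, namely Socs4 across birth with the array SD as a covariate (0.086 against −0.28). Among the 3034, 115 differences that were called under neither setting changed sign, and the others kept their direction. Of 395 counts of called members 31 moved by more than 1.5 times, and the cause was not tested. With the transgene 1 member was called under trend and robust eBayes. At day 6.5, 1 was called when probe sets were averaged. Post partum against non-pregnant, 4 were called with array weights and 1 with all 39 arrays. Across birth 2 were called with quantile normalization, 0 with the array SD and 3 with all 39 arrays, and 1 from day 3.5 to 6.5 with quantile normalization. From day 6.5 to 9.5, 2 were called on centred arrays. From day 15.5 to 18.5, 0 were called with quantile normalization, the array SD or only the groups compared, and 1 with the mean of probe sets, the acinar mean or all 39 arrays. Control littermates against non-pregnant gave 2 with only the groups compared.

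With single arrays left out, counts ranged from 0 to 2 at day 6.5 (2 without its replicate 4), 2 to 4 post partum against non-pregnant (4 without post partum replicate 3), 0 to 2 from day 15.5 to 18.5, 1 to 2 for the interaction (2 without control replicate 3) and 2 to 5 between the baselines. From day 15.5 to 18.5 the count was 0 without day 15.5 replicate 2 or 3 or day 18.5 replicate 1 or 4, and 1 without day 15.5 replicate 1 or day 18.5 replicate 3. Between the baselines it was 2 without control replicate 1 or 2 or non-pregnant replicate 1 or 3, and 3 without control replicate 3 or non-pregnant replicate 2.

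Same-numbered arrays had a median correlation of deviations of 0.0457 in the backcross mice (over 0.1 in 1 of 4 pairs), beside −0.0252 in 12 other pairs. In C57bl6/J mice it was 0.0195 (over 0.1 in 21 of 105 pairs), beside 0.00699 in 315 other pairs. These low medians, from few pairs in the backcross mice, do not settle whether replicate numbers pair the arrays. With a replicate block the counts of called members were the same in 17 of 18 comparisons, for example 2 with the transgene and 5 across birth, and 5 in place of 6 in the F-test. Centring on array medians moved the median difference of all genes by −0.125 across birth (to −0.15), by 0.1 from day 15.5 to 18.5 and by 0.125 between the baselines (to 0.15). Differences of 0.1 to 0.2 are of the size of these shifts and of the rounding step.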
